A study of Mus musculus with 9 samples.

Results

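The 10 genes described here encode the proteins through which neighbouring heart muscle cells are electrically coupled and held together at the intercalated disc. They are the connexin genes Gja1, Gja5, Gja3 and Gjc1, the desmosome genes Dsp, Pkp2, Jup, Dsg2 and Dsc2, and the N-cadherin gene Cdh2. The genes were chosen by name. All transcripts carrying each name in the deposited read and TPM (a relative abundance corrected for transcript length) tables were summed, so the set is 10 of 41710 gene names, and all 10 passed the filter on low counts. The cardiac transcriptome was measured by RNA-seq in 9 hearts of male FVB/N mice aged 8 months, 3 in each of 3 groups. Tg-RKIP mice carry a transgene for the RAF kinase inhibitor protein (gene Pebp1) that the alpha-MHC promoter expresses in the myocardium. The labels give the Tg-GRK2 mice a GRK2 transgene, whose promoter and species of origin are not given in the sources used here. The controls were non-transgenic FVB/N mice (FVB), and the labels name no founder line for either transgenic group.

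A connexin is a membrane protein that assembles into a gap junction channel, through which ions and small molecules pass directly from cell to cell. In the ventricle most of these channels are built of connexin Cx43 (Gja1), whereas Cx40 (Gja5) is known from the atria, the fast ventricular conduction fibres and arterial endothelium, and Cx45 (Gjc1) from nodal tissue. Desmosomes are made of cadherins that cross the gap between cells (desmoglein and desmocollin), the plaque proteins plakoglobin and plakophilin, and desmoplakin, which ties the plaque to desmin filaments. N-cadherin does the corresponding work for the actin filaments at the adherens junction. Inherited defects of the desmosomal genes are known from arrhythmogenic cardiomyopathy.

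The libraries held 25458108 to 33447654 reads. Pebp1, the endogenous name of the RKIP transgene, stood at 16371, 15967 and 16257 TPM in the Tg-RKIP hearts and between 315.7 and 329.8 TPM in the other 6 hearts. Grk2 did not separate the libraries labelled Tg-GRK2 from FVB in these tables (1468, 1460 and 1765 reads against 1302, 1589 and 1341, a difference of 0.054 ± 0.0384 SE on the log2 scale, adjusted p = 0.354, edgeR), so that group is named by its label throughout. Reads of mitochondrially encoded genes made up 11.7 ± 0.156% of the Tg-RKIP libraries (SD, n = 3), against 22.6 ± 0.299% in Tg-GRK2 and 23.1 ± 0.158% in FVB. The choice of scale therefore enters every level below. Counts were scaled by TMM, which centres the bulk of the genes (median log2 fold change 0.0085 in Tg-RKIP against FVB). Scaling to library size alone moves that median to 0.38, and limma on log2(TPM + 0.1) over genes of at least 1 TPM in 3 libraries gives 0.43 (0.37 with a pseudocount of 1, and 0.23 without that filter). The cardiomyocyte markers were abundant in all 9 hearts (summed TPM of 10 markers 54152 to 55105 in Tg-RKIP, 58723 to 60429 in Tg-GRK2 and 60767 to 60959 in FVB). In whole hearts, fewer cells of a type and less RNA per cell cannot be told apart.

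In the FVB hearts the levels of the 10 genes spanned from 246 TPM to 10.2 TPM and fell into a high and a low class. Gja1 was highest at 246 ± 3.40 TPM (SD, n = 3 hearts, as for the values that follow), ahead of Dsp at 231 ± 1.66 TPM and Cdh2 at 143 ± 0.701 TPM. Jup at 98.8 ± 3.01 TPM and Pkp2 at 87.1 ± 0.857 TPM came next. The 2 desmosomal cadherins were far lower, Dsc2 at 22.8 ± 0.224 TPM and Dsg2 at 22.3 ± 0.834 TPM, and their ranges overlapped. The low connexins followed, with Gjc1 at 14.7 ± 1.496 TPM, Gja5 at 11.7 ± 0.995 TPM and Gja3 at 10.2 ± 0.859 TPM. Gja5 and Gja3 overlapped as well, whereas the other neighbouring pairs of this order did not overlap among the FVB hearts. The hearts labelled Tg-GRK2 kept the same classes, with Dsp (258 TPM) ahead of Gja1 (249.9 TPM), and with Gjc1 overlapping Gja5 and Gja5 overlapping Gja3. In the Tg-RKIP hearts Gjc1 stood 6th of the 10, above Dsc2, and Dsg2 and Gja5 were the 2 lowest, at 7.01 and 6.20 TPM.

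**Figure D1:**
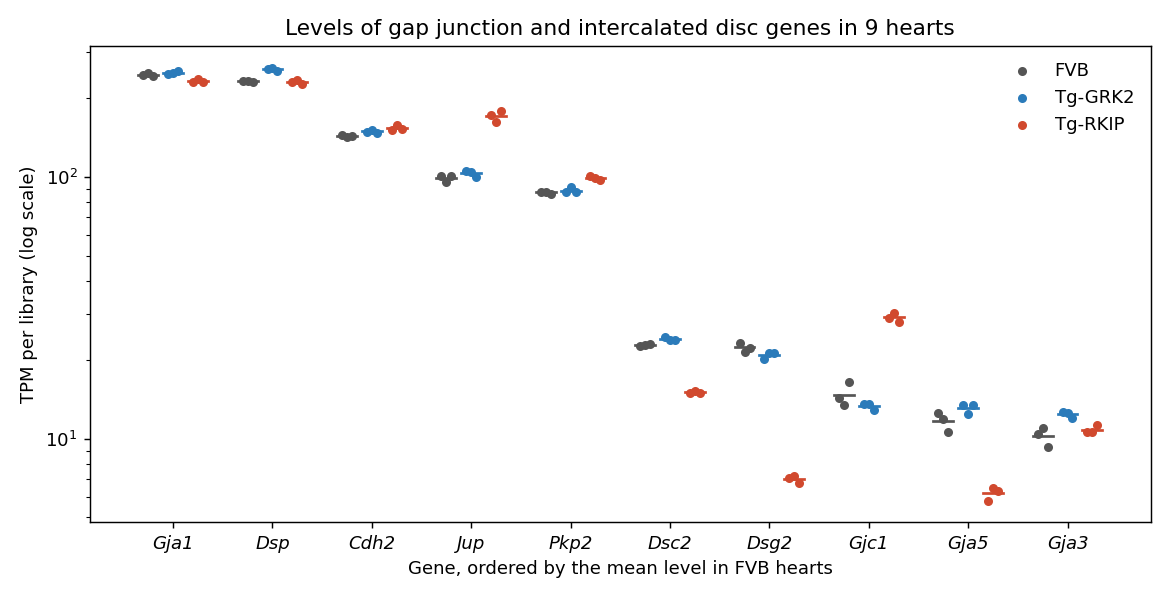
Level of each of the 10 genes in TPM (log axis) in the 9 hearts, with 1 point a heart and a bar at the group mean, ordered by the mean in FVB. Tg-RKIP hearts sit apart from both other groups for Jup and Gjc1 (higher) and for Dsc2, Dsg2 and Gja5 (lower), by less for Gja1 and Pkp2, while Dsp overlaps FVB at about 231 TPM.

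Tg-RKIP hearts were compared with FVB hearts to find which junction genes differ in this mouse, which the study describes as developing dilated cardiomyopathy and heart failure. All 10 genes passed the threshold on TMM-scaled counts, 2 higher (Gjc1 and Jup) and 8 lower, and in all 10 the 3 Tg-RKIP hearts did not overlap the 3 FVB hearts. This share is to be read against the whole table: 73.9% of the 15504 genes tested passed, 36.8% higher and 37.1% lower, and 75.7% did not overlap. On library size alone 78.6% of the calls over all genes were higher, in place of 49.8%. The median of the 10 genes was -0.42 on the log2 scale, against 0.0085 over all genes. A decrease of at least 1 on the log2 scale was seen for Dsg2, Gja5 and Dsc2, 3 of the 10, against 6.12% of all genes. Scaled to library size alone, 4 genes were higher (Gjc1, Jup, Pkp2 and Cdh2), 5 were lower (Dsg2, Gja5, Dsc2, Dsp and Gja1) and Gja3 did not pass. The directions of Gjc1, Jup, Dsg2, Gja5 and Dsc2 were the same on TMM-scaled counts, library size and TPM. So was that of Gja1, though by little in TPM (mean ratio 0.943).

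Among the connexins, Gja1 encodes Cx43, the main ventricular channel protein, and lies on chromosome 10, 56253426 to 56278609, plus strand, in the coordinates of the deposited table (GRCm39 in the submitters' processing notes, as for all positions here). Its level was 231, 235 and 229 TPM in the Tg-RKIP hearts, 248, 248 and 254 TPM in the hearts labelled Tg-GRK2 and 245, 249.6 and 243 TPM in the FVB hearts. The Tg-RKIP hearts were lowest on both scales, but by little in TPM (mean ratio 0.943). On TMM-scaled counts Gja1 was 1.42-fold lower (log2 -0.50 ± 0.0190 SE, adjusted p = 4.00e-16, edgeR), and on library size alone the difference was -0.13 (log2). An exact two-sided permutation test of 3 against 3 hearts cannot go below p = 0.1, the value it gave for Gja1 on both scales.

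Gja5 (Cx40, chromosome 3, 96812009 to 96984732, plus strand) was measured at 5.80, 6.49 and 6.32 TPM in the Tg-RKIP hearts, 13.5, 12.4 and 13.5 TPM in the hearts labelled Tg-GRK2 and 12.5, 11.9 and 10.6 TPM in the FVB hearts. All Tg-RKIP hearts were below all others. The counts scaled by TMM were 284, 316 and 315 in Tg-RKIP and 812, 787 and 699.7 in FVB, a 2.51-fold decrease (log2 -1.33 ± 0.0648 SE, adjusted p = 4.08e-14, edgeR), which was still -0.95 (log2) on library size alone. Gja5 is also known from arterial endothelium and the conduction system. Of 6 arterial endothelial markers, 2 were higher and 1 lower in Tg-RKIP on TMM-scaled counts (summed 54.9 to 57.4 TPM against 36.3 to 38.4 in FVB). Of 6 tested conduction system markers, 2 were higher and 4 lower (summed 24.6 to 25.1 TPM against 21.0 to 21.9). The higher ones were the transcription factor genes Shox2 (3.56, 3.37 and 3.12 TPM against 1.31, 1.76 and 1.61 in FVB) and Irx3 (13.2, 13.02 and 13.1 TPM against 7.91, 7.82 and 7.90). Among the lower ones were the pacemaker channel Hcn4, at 0.977, 0.876 and 0.957 TPM against 3.30, 3.08 and 3.20, and the conduction fibre adhesion molecule Cntn2, at 1.56, 1.69 and 1.62 TPM against 3.93, 3.70 and 3.73. Of 6 atrial markers, 2 were higher and 4 lower (summed 3229 to 3342 TPM against 2066 to 2134 in FVB). The atrial myosin light chain Myl4, the most abundant of them, was higher, at 2565, 2459 and 2571 TPM against 1044, 1051 and 1041, and the other atrial light chain, Myl7, was lower, at 344, 381 and 383 TPM against 671, 707 and 642. On library size alone, 5 arterial endothelial markers were higher and 0 lower. The conduction system markers then split into 3 higher and 2 lower, and the atrial markers into 3 higher and 2 lower. The part of these markers in the Gja5 result was not tested.

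Gjc1 (Cx45, chromosome 11, 102690405 to 102710526, minus strand) moved the other way, with 29.0, 30.2 and 27.8 TPM in the Tg-RKIP hearts, 13.6, 13.5 and 12.8 TPM in the hearts labelled Tg-GRK2 and 14.3, 13.5 and 16.4 TPM in the FVB hearts. Every Tg-RKIP heart was above every other heart, with no overlap. The increase was 1.46-fold on TMM-scaled counts (log2 0.55 ± 0.0575 SE, adjusted p = 1.95e-08, edgeR) and 1.97-fold in TPM. Its reads were divided between a pair of main transcripts, and that division was unstable within FVB (452, 77 and 88 reads on the transcript of 1903 bases, 9, 443 and 422 on that of 1890 bases), so the gene sum is used here. From the more abundant transcript alone the difference was 0.47 on the log2 scale (adjusted p = 0.628, edgeR).

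Gja3 (Cx46, a connexin best known from the eye lens, chromosome 14, 57271917 to 57295557, minus strand) stood at 10.6, 10.6 and 11.2 TPM in the Tg-RKIP hearts, 12.6, 12.5 and 11.9 TPM in the hearts labelled Tg-GRK2 and 10.4, 10.97 and 9.29 TPM in the FVB hearts. Its Tg-RKIP and FVB hearts overlapped in TPM. The TMM-scaled difference was -0.34 ± 0.0563 on the log2 scale (SE, adjusted p = 1.19e-05, edgeR), and it became 0.030 with adjusted p = 0.628 on library size alone (edgeR), so no direction is given for this gene.

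Of the desmosomal cadherins, Dsg2 (desmoglein, chromosome 18, 20691131 to 20737578, plus strand) showed the largest difference of the 10 genes. It was measured at 7.06, 7.18 and 6.78 TPM in the Tg-RKIP hearts, 20.2, 21.3 and 21.2 TPM in the hearts labelled Tg-GRK2 and 23.2, 21.5 and 22.2 TPM in the FVB hearts. The 3 Tg-RKIP hearts lay close together and far below the other 6. The TMM-scaled counts were 621, 649.6 and 625 in Tg-RKIP against 2789, 2631 and 2698 in FVB, a 4.27-fold decrease (log2 -2.09 ± 0.0349 SE, adjusted p = 1.98e-22, edgeR), with -1.72 (log2) on library size alone. Its partner Dsc2 (desmocollin, chromosome 18, 20163690 to 20192611, minus strand) stood at 14.97, 15.2 and 14.97 TPM in the Tg-RKIP hearts, 24.5, 23.9 and 23.8 TPM in the hearts labelled Tg-GRK2 and 22.6, 22.9 and 23.1 TPM in the FVB hearts, again with no overlap between Tg-RKIP and the rest. The decrease was 2.03-fold on TMM-scaled counts (log2 -1.02 ± 0.0310 SE, adjusted p = 7.66e-18, edgeR). The 2 transcripts that carry most Dsc2 reads both fell (-1.33 and -0.74 on the log2 scale) in the edgeR test of 34991 transcripts, of which 34% passed. The division of reads between them was unstable within groups, so the gene sum is used here. The transcript of 4508 bases took 58.4, 45.9 and 40.2% of Dsc2 reads in FVB and 47.6, 37.3 and 29.1% in Tg-RKIP.

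Of the plaque genes, Jup was higher on TMM-scaled counts, whereas Pkp2 and Dsp were lower. Jup (plakoglobin, which binds the tails of both desmosomal and classical cadherins, chromosome 11, 100259784 to 100288589, minus strand) was measured at 172, 162 and 178 TPM in the Tg-RKIP hearts, 105, 104 and 100.1 TPM in the hearts labelled Tg-GRK2 and 101, 95.3 and 100.4 TPM in the FVB hearts. All Tg-RKIP hearts were above the other 6. The TMM-scaled increase was smaller than the TPM values show, 1.17-fold (log2 0.23 ± 0.0231 SE, adjusted p = 1.13e-08, edgeR) against 1.73-fold in TPM. Part of the TPM sum came from a short transcript of 441 bases. It was assigned 118, 121 and 209 reads in the Tg-RKIP hearts and 0 in the other 6, and these few reads gave 15.99, 12.7 and 28.6 TPM. The main transcript of 3205 bases alone rose by 0.24 on the log2 scale in the test of all transcripts (adjusted p = 2.02e-04, edgeR). It rose by 0.17 in the fit on the most abundant transcript of each gene (adjusted p = 5.20e-04, edgeR). Each of these fits was scaled on its own counts, so the values are not on the scale of the gene sum.

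Pkp2 (plakophilin, which links the cadherin tails to desmoplakin, chromosome 16, 16031182 to 16090576, plus strand) was measured at 101, 98.6 and 96.8 TPM in the Tg-RKIP hearts, 87.6, 91.1 and 87.2 TPM in the hearts labelled Tg-GRK2 and 87.4, 87.8 and 86.2 TPM in the FVB hearts. The Tg-RKIP hearts were above FVB in TPM and below it on TMM-scaled counts (log2 -0.24 ± 0.0211 SE, adjusted p = 1.20e-09, edgeR), and library size alone gave 0.14. Cdh2 (N-cadherin, chromosome 18, 16721934 to 16942303, minus strand) was measured at 151, 158 and 153 TPM in the Tg-RKIP hearts, 148, 152 and 147 TPM in the hearts labelled Tg-GRK2 and 144, 142 and 143 TPM in the FVB hearts. It too was higher in TPM and lower on TMM-scaled counts (log2 -0.30 ± 0.0189 SE, adjusted p = 4.67e-12, edgeR), with 0.078 on library size alone. The Pkp2 and Cdh2 differences are therefore smaller than the shift between scalings, and their sign depends on it.

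**Figure D2:**
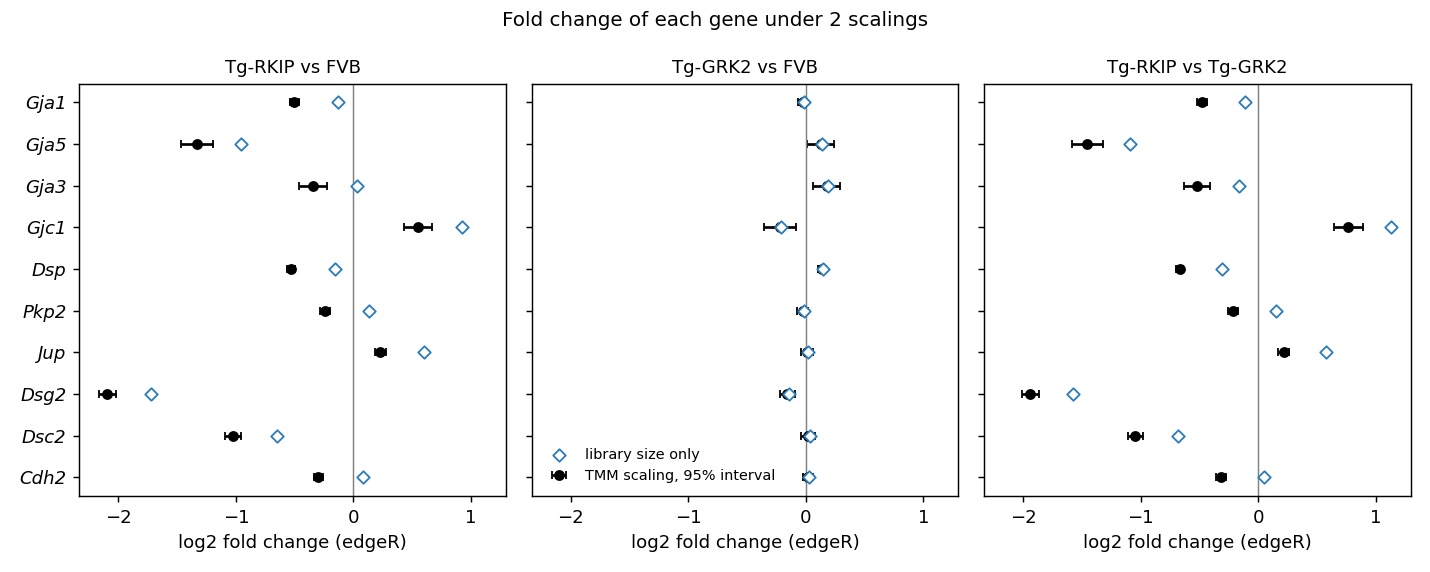
Log2 fold change of the 10 genes in the 3 comparisons, as black points with 95% intervals on TMM-scaled counts and open diamonds on library size alone. In both comparisons with Tg-RKIP the diamonds lie to the right of the points, and Pkp2 and Cdh2 cross 0. Dsg2, Dsc2, Gja5, Dsp, Gja1, Gjc1 and Jup stay on their side.

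Ratios of genes within a library do not depend on how libraries are scaled, and 9 were computed from TPM. In all 9 the Tg-RKIP hearts were apart from the FVB hearts, 6 higher and 3 lower, each with p = 0.1, the smallest that the exact two-sided permutation test allows. Among single genes 75.7% did not overlap in this comparison, the share over other pairs of genes was not computed, and nothing is read from the count of ratios. Gjc1 amounted to 0.125 ± 0.00356 of Gja1 in Tg-RKIP (SD, n = 3) and 0.0600 ± 0.00684 in FVB, a 2.10-fold higher ratio. Gja5 amounted to 0.0268 ± 0.00141 of Gja1 in Tg-RKIP and 0.0474 ± 0.00380 in FVB, 1.77-fold lower. Gja3 relative to Gja1 was 1.12-fold higher, and Gja1 relative to Cdh2 1.14-fold lower. Within the desmosome, Dsg2 relative to Dsp was 0.0304 ± 0.000464 in Tg-RKIP and 0.0964 ± 0.00344 in FVB, 3.17-fold lower, and Jup relative to Dsp was 0.741 ± 0.0444 and 0.427 ± 0.0140, 1.73-fold higher. Dsc2 and Dsg2 were near parity in FVB, with a ratio of 1.03 ± 0.0445, whereas the ratio in Tg-RKIP was 2.15 ± 0.0493. Pkp2 and Cdh2 relative to Dsp were 1.14-fold and 1.08-fold higher. These 2 ratios turn when each library's trend of counts against transcript length is removed, an alternative chosen after seeing the data. Pkp2 (-0.27) and Cdh2 (-0.25) then lay below Dsp (-0.12) on the log2 scale of fitted differences, while Jup was at 0.23. Read from the most abundant transcript of each gene, all 9 ratios kept their direction, but the 4 over Dsp moved, since only its long transcript is then counted. Jup to Dsp became 1.56 on the log2 scale in place of 0.79, and Dsg2 to Dsp -0.74 in place of -1.67. The Gjc1 to Gja1 ratio became 2.28 in place of 1.07, with the Gjc1 reads divided as unevenly as described above.

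Dsp (desmoplakin, chromosome 13, 38335270 to 38382553, plus strand) was measured at 231, 233 and 227 TPM in the Tg-RKIP hearts, 258, 261 and 254 TPM in the hearts labelled Tg-GRK2 and 233, 232 and 229 TPM in the FVB hearts. In TPM the Tg-RKIP and FVB hearts overlapped, whereas the TMM-scaled counts were 1.45-fold lower in Tg-RKIP (log2 -0.53 ± 0.0158 SE, adjusted p = 5.31e-18, edgeR). The reads were divided between a long transcript of 9592 bases and a short one of 7761 bases, which correspond in structure to the known rod-length isoforms of desmoplakin. The 2 share their 24 exons except that exon 23, from 38375337 on the plus strand of chromosome 13, ends at 38377631 in the long transcript and at 38375834 in the short one. The long transcript also starts 34 bases earlier. The stretch present only in the long form, 38375835 to 38377631, has 1797 bases, a multiple of 3 that corresponds to 599 codons of coding sequence. The junction is shown from the GENCODE M21 transcripts of the same identifiers and lengths, with 30 shared bases in lower case and the 30 bases after the point of divergence in capitals, to show where the 2 isoforms part.
Dsp long: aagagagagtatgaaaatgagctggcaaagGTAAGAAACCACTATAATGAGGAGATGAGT
Dsp short: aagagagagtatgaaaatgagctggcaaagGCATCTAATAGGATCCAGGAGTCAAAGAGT
In the long form the capitals are the rest of exon 23, and in the short form they are the start of exon 24 at 38378672.

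The balance of these transcripts differed between all 3 groups. The long transcript took 79.5, 81.7 and 81.3% of Dsp reads in the FVB hearts, 89.3, 90.4 and 90.4% in the hearts labelled Tg-GRK2 and 46.8, 48.5 and 41.9% in the Tg-RKIP hearts. No heart of any group overlapped another group (exact two-sided permutation p = 0.1 for each pair, the smallest possible). In assigned reads, the short transcript had 17546, 22218 and 18437 in Tg-RKIP against 7908, 8083 and 7058 in FVB. The long transcript had 15440, 20965 and 13314 against 30753, 35988 and 30777. The short transcript has 0 bases that the long one lacks. Away from the junction shown above, its reads therefore rest on how shared reads were divided. In the transcript test the long form fell by 1.32 (adjusted p = 1.32e-06) and the short form rose by 1.00 on the log2 scale (adjusted p = 6.74e-06, edgeR). In Tg-GRK2 against FVB the directions were the opposite, with 0.30 for the long form (adjusted p = 0.0367) and -0.80 for the short form (adjusted p = 6.09e-04, edgeR), where 3.42% of all transcripts passed. That call of the long form held in 2 of the 9 fits that left out 1 library (Tg-RKIP heart 2 or 3), whereas the short form passed in all 9. In Tg-RKIP against Tg-GRK2 the long form was -1.61 and the short form 1.81 on the log2 scale, where 37% of all transcripts passed.

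The Dsp shift was set beside all genes that had 2 leading transcripts of at least 100 reads each on average and a length difference of at least 1000 bases (1447 genes). The share of the longer transcript was lower in Tg-RKIP than in FVB in 59.7% of them, with a median change of -2.36 percentage points. It was lower without overlap in 44.6% and higher without overlap in 27.2%. Dsp changed by -35.1 points, and 8.71% of the genes fell at least as far. In Tg-GRK2 against FVB the median change was 0.611 points, Dsp changed by 9.19 points, and 6.22% of the genes rose at least as far. The share was higher without overlap in 15.8% and lower without overlap in 9.26%. In Tg-RKIP against Tg-GRK2 the median change was -2.88 points, with 47.5% lower and 27.8% higher without overlap. Dsp changed by -44.3 points there, and 6.63% of the genes fell at least as far. How the authors divided reads shared by transcripts is not given in the sources used here, and its part in the shares was not tested.

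**Figure D3:**
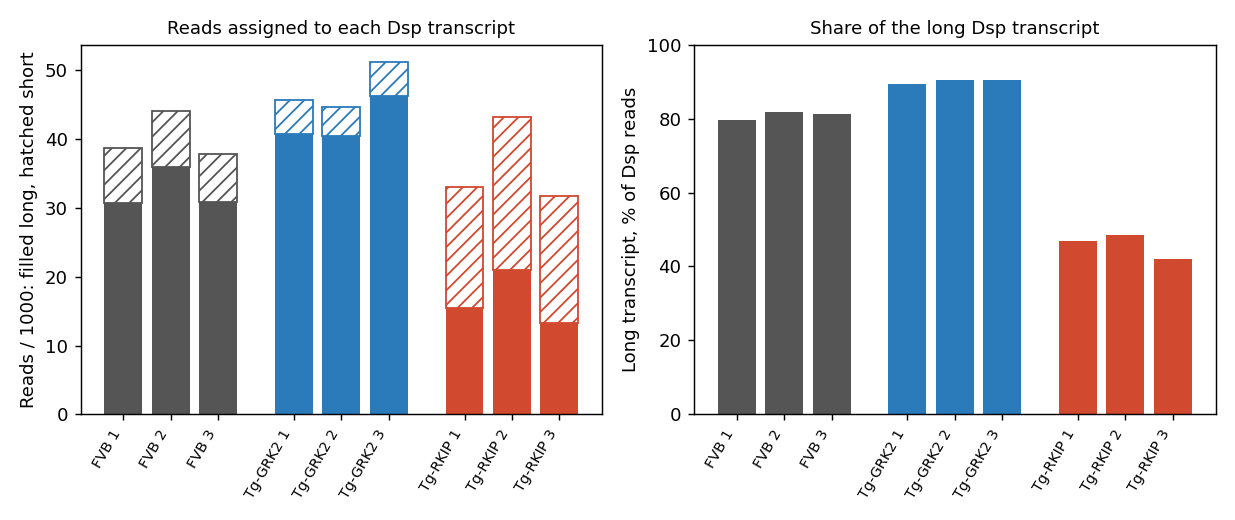
Left, reads (divided by 1000) assigned to the long (filled) and short (hatched) Dsp transcript in each of the 9 hearts, and right, the long transcript as a percent of Dsp reads. The share is 79.5 to 81.7% in FVB, 89.3 to 90.4% in Tg-GRK2 and 41.9 to 48.5% in Tg-RKIP.

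The transcripts of the 10 genes differ in length, and length moved with the result across the whole table. In Tg-RKIP against FVB the median log2 fold change was 0.115 for the 2058 genes whose most abundant transcript was under 1000 bases and -0.345 for the 1422 genes of 6000 bases and over. In Tg-GRK2 against FVB the medians ran the other way, from -0.0729 to 0.0647. Dsp, at 9592 bases, Dsg2 at 5766 and Dsc2 at 4630 are the longest of the 10, and Gjc1 at 1890 bases is the shortest. With each library's trend against length removed, Dsp moved most, from -0.53 to -0.12 on the log2 scale. Dsg2 was -1.88, Dsc2 -0.90 and Gjc1 0.43. Gja5, whose main transcript has 3109 bases, was -1.34. All 10 genes kept their direction and their side of the threshold in that comparison under this alternative. The part of RNA quality in the length trend was not tested.

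**Figure D4:**
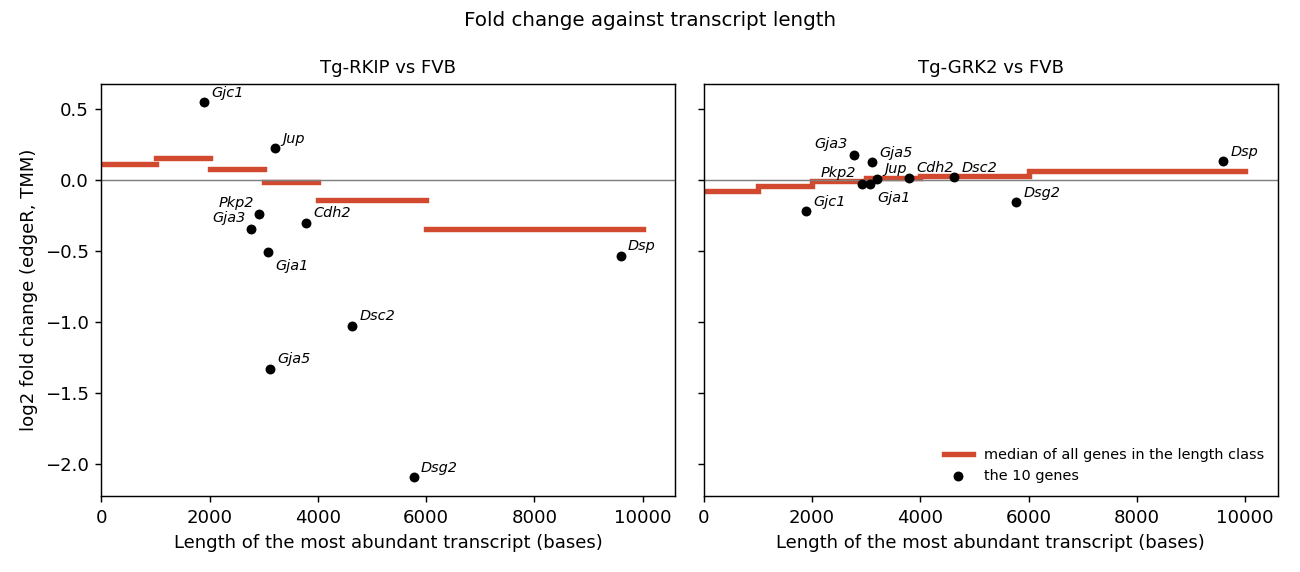
Log2 fold change on TMM-scaled counts against the length of the most abundant transcript, for Tg-RKIP against FVB (left) and Tg-GRK2 against FVB (right). Red lines are medians of all genes in a length class, the last of which is open above 6000 bases, and points are the 10 genes. Left, the medians fall from 0.115 to -0.345 and Dsg2, Gja5 and Dsc2 lie well below their class, while right the medians rise from -0.0729 to 0.0647.

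Hearts labelled Tg-GRK2 were compared with the same FVB hearts. Of the 10 genes, 2 were higher (Gja3 and Dsp), 2 were lower (Gjc1 and Dsg2) and 6 did not pass, where 24.5% of all genes passed, 12.2% higher and 12.2% lower. Gja3, Gjc1, Dsp, Dsg2 and Cdh2, 5 of the 10, did not overlap FVB on TMM-scaled counts, against 37.1% of all genes. Dsp was 1.10-fold higher (log2 0.14 ± 0.0157 SE, adjusted p = 1.07e-06, edgeR), with all 3 hearts above FVB in TPM, and 0.062 (log2) with the length trend removed. Dsg2 was 1.11-fold lower (log2 -0.16 ± 0.0296 SE, adjusted p = 4.20e-04, edgeR), with every heart below FVB. It did not pass in limma on log2(TPM + 0.1) (-0.093, adjusted p = 0.185). In the test of 34991 transcripts its main transcript missed the threshold (Dsg2_1, adjusted p = 0.0550, edgeR). The same transcript passed in the fit on the most abundant transcript of each gene (-0.15, adjusted p = 0.0178, edgeR). Gja3 was 1.13-fold higher (log2 0.18 ± 0.0546 SE, adjusted p = 0.0209, edgeR). Gjc1 was 1.16-fold lower on TMM-scaled counts (log2 -0.22 ± 0.0649 SE, adjusted p = 0.0163, edgeR), but its hearts overlapped FVB in TPM and it did not pass in limma on TPM. The Gja3 and Gjc1 calls were both lost without FVB heart 3, the Gja3 call also without Tg-GRK2 heart 1 and the Gjc1 call also without Tg-GRK2 heart 3. For Gja5 the difference was 0.13 ± 0.0561 on the log2 scale (SE, adjusted p = 0.113, edgeR), with a 95% interval from 0.0096 to 0.24. The 95% intervals of Gja1, Pkp2, Jup, Dsc2 and Cdh2 all lay between -0.071 and 0.082 on the log2 scale.

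A direct comparison of Tg-RKIP with Tg-GRK2 hearts asked which junction genes separate the Tg-RKIP hearts from the hearts labelled Tg-GRK2. All 10 genes passed, 2 higher (Gjc1 and Jup) and 8 lower, where 74.5% of all genes passed, 37.9% higher and 36.6% lower. None of the 10 overlapped between the groups on TMM-scaled counts, against 76.4% of all genes that did not overlap. Gjc1 was 1.70-fold higher (log2 0.77 ± 0.0584 SE, adjusted p = 9.15e-11, edgeR) and Jup 1.16-fold higher (log2 0.22 ± 0.0230 SE, adjusted p = 2.24e-08, edgeR). Dsg2 was 3.83-fold lower (log2 -1.94 ± 0.0351 SE, adjusted p = 8.35e-22, edgeR), Gja5 2.74-fold lower (log2 -1.45 ± 0.0631 SE, adjusted p = 4.73e-15, edgeR) and Dsc2 2.06-fold lower (log2 -1.05 ± 0.0307 SE, adjusted p = 4.11e-18, edgeR). A decrease of at least 1 on the log2 scale, seen for these 3, was seen for 6.91% of all genes. The other 5 were lower by 0.21 (Pkp2) to 0.67 (Dsp) on the log2 scale, the latter -0.18 with the length trend removed. On library size alone Pkp2 and Cdh2 were higher, at 0.15 and 0.046. The comparisons with FVB share the FVB hearts. The present comparison shares its Tg-RKIP hearts with the first and its Tg-GRK2 hearts with the second, so the 3 are not independent.

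The other genes of the junctions were read from fixed lists, tested in the same fit. Of 16 other connexins, 4 had enough reads, and 3 of them passed as higher in the Tg-RKIP hearts than in FVB, as they did on library size alone. Gja4, the Cx37 gene known from arterial endothelium, was at 30.8, 29.5 and 28.9 TPM in the Tg-RKIP hearts, 7.33, 7.52 and 8.50 TPM in the hearts labelled Tg-GRK2 and 7.12, 7.06 and 7.01 TPM in the FVB hearts, 3.15-fold higher (log2 1.66 ± 0.0591 SE, adjusted p = 1.46e-16, edgeR). All 3 Tg-RKIP hearts were above all others. Gjb5, named after its values were seen, had only 23, 29 and 25 reads in the Tg-RKIP hearts. Of the 3 pannexins, which form channels in a single membrane, Panx1 was 4.51-fold higher (log2 2.17 ± 0.112 SE, adjusted p = 1.11e-13, edgeR), at 12.0, 11.9 and 14.7 TPM against 2.01, 1.87 and 2.04. Panx3, also named after its values were seen, had 60, 69 and 60 reads in Tg-RKIP and 0, 1 and 0 in FVB. No other connexin or pannexin passed in Tg-GRK2 against FVB. Summed over the 16 genes, the other connexins made 32.2 to 34.1 TPM in Tg-RKIP and 7.84 to 8.31 TPM in FVB.

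The adherens junction plaque links Cdh2 to actin. Against FVB, 2 of its 8 tested genes rose in Tg-RKIP and 5 fell, with a median of -0.22 (log2). On library size alone the split was 5 higher and 1 lower. Ctnna3, the alpha-T-catenin of heart muscle, fell 1.90-fold (log2 -0.93 ± 0.05002 SE, adjusted p = 2.43e-13, edgeR), with 8.03, 8.47 and 8.92 TPM in Tg-RKIP, 15.04, 14.3 and 13.8 in Tg-GRK2 and 12.6, 11.8 and 12.2 in FVB, and it was lower on library size too (-0.55). Vcl (vinculin) was -0.38 on TMM-scaled counts and -0.0059, no longer past the threshold, on library size. Ctnnb1 (beta-catenin) differed by 0.061 and Ctnnd1 (a catenin that binds cadherin tails) by 0.060, but the Ctnnb1 difference was -0.077 with the length trend removed. In Tg-GRK2 against FVB, Ctnna3 (0.19) and Vcl (0.18) were higher and Ctnnb1 (-0.077) was lower, a call lost with the length trend removed (-0.024, adjusted p = 0.360, edgeR), among 2 genes of the list that rose and 2 that fell.

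Of 17 disc scaffold and disc-associated genes, 5 rose and 12 fell in the Tg-RKIP hearts against FVB, with a median of -0.30 (log2), and library size alone gave 9 higher and 8 lower. Tmem65, a disc protein that binds Cx43, fell 2.42-fold (log2 -1.28 ± 0.0218 SE, adjusted p = 2.80e-22, edgeR), from 153, 147 and 145 TPM in FVB to 83.4, 82.9 and 78.7 TPM. Tjp1 (ZO-1, the scaffold at the rim of Cx43 plaques) was -0.63 on TMM-scaled counts and -0.26 on library size. Des (desmin, the filament that desmoplakin anchors) rose 1.87-fold (log2 0.90 ± 0.0151 SE, adjusted p = 2.09e-22, edgeR), at 1776, 1758 and 1786 TPM in the Tg-RKIP hearts, 738, 785 and 758 TPM in the hearts labelled Tg-GRK2 and 731, 738 and 723 TPM in the FVB hearts. Tmem43, a nuclear envelope protein gene linked to arrhythmogenic cardiomyopathy, rose 1.75-fold (log2 0.80 ± 0.0504 SE, adjusted p = 3.58e-12, edgeR). In Tg-GRK2 against FVB, 6 of the 17 rose and 2 fell. Des and Tmem43 did not pass there (0.0018 and -0.061).

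Of 12 genes of epithelial desmosomes, 4 had enough reads. Perp, a desmosome-associated membrane protein, was lower in Tg-RKIP (log2 -0.74 ± 0.0211 SE, adjusted p = 2.37e-18, edgeR), at 136, 136 and 131 TPM against 171, 165 and 169 in FVB. Ppl (periplakin) was -0.23 and turned to 0.14 on library size. Pkp3 and Evpl, named after their values were seen, passed as higher with mean normalised counts of 14.8 and 23.9 in Tg-RKIP. The skin desmoglein and desmocollin genes of the list did not pass the filter on low counts. Beside this, 7 of 8 tested airway epithelial markers were higher in Tg-RKIP (summed 96.0 to 101 TPM against 6.50 to 6.86 in FVB and 159 to 166 in Tg-GRK2). Most of that sum was Scgb1a1, whereas the epithelial cadherin Cdh1 was at 0.175, 0.250 and 0.177 TPM in Tg-RKIP and 0.0746, 0.0915 and 0.151 in FVB.

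**Figure D5:**
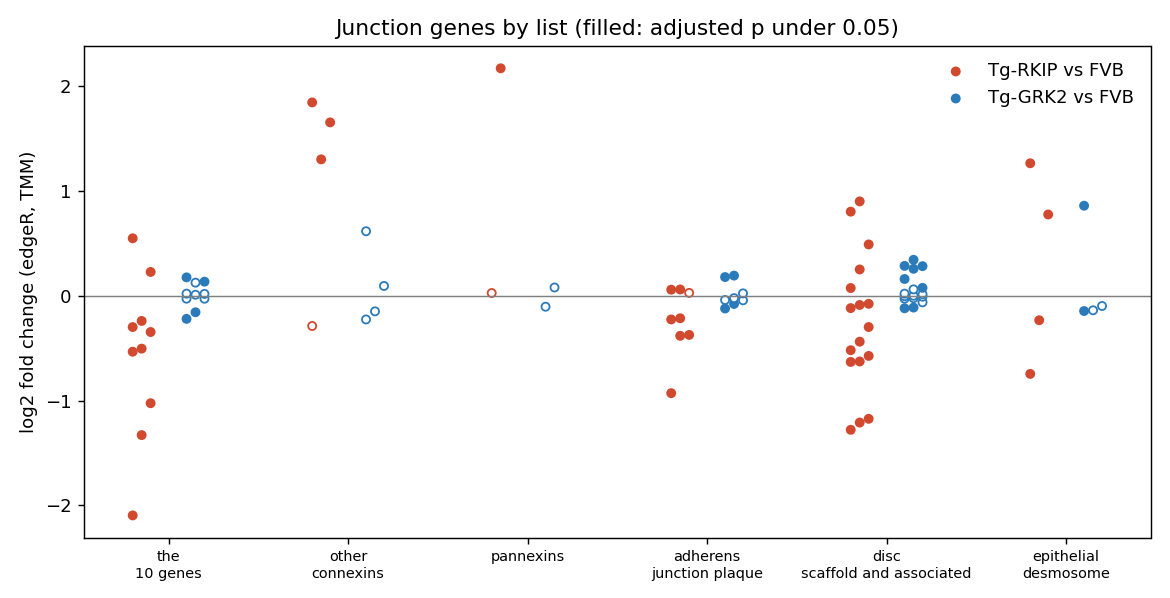
Log2 fold change on TMM-scaled counts of the 10 genes and of each list of other junction genes, for Tg-RKIP (red) and Tg-GRK2 (blue) against FVB, with filled points past the threshold. The 10 genes run from -2.09 to 0.55 in red and from -0.22 to 0.18 in blue. Panx3, with 1 read in all FVB hearts together, is left out.

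Markers of the cell types in the heart moved in the same comparison. Of 10 cardiomyocyte markers 9 were lower and none higher in Tg-RKIP against FVB (median -0.97, log2). On library size alone 8 were lower and 2 higher. On TMM-scaled counts, 7 of 8 fibroblast markers were higher and 1 lower, and 7 of 10 endothelial markers were higher and 3 lower. Of 6 smooth muscle markers 4 were higher and 2 lower, and 5 of 5 adipocyte markers were higher. Summed fibroblast markers made 2265 to 2270.5 TPM in Tg-RKIP, 1017 to 1033 in Tg-GRK2 and 941 to 968 in FVB. The endothelial sums were 821 to 840.1, 457 to 467 and 453 to 459.5 TPM, to be read beside the Gja4 values. Smooth muscle sums were 942 to 962, 459 to 472 and 486 to 505 TPM, adipocyte sums 162 to 168, 26.5 to 30.4 and 15.8 to 17.3 TPM, and atrial sums 3229 to 3342, 2282 to 2402 and 2066 to 2134 TPM. Against that median of the cardiomyocyte markers, Dsg2 and Gja5 lay lower, Dsc2 lay close to it and only slightly lower, and the other 7 genes lay higher. The part of these shifts in the results for the 10 genes was not tested.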

How the data were processed

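RNA-seq of 9 whole hearts, with 1 library a heart and single reads of 50 bases, was analysed from the deposited tables. Per the file headers and labels, the authors' files hold read counts and TPM for each of 127558 transcripts, in GRCm39 coordinates as the submitters' processing notes name the build. The aligner, the counter and the way shared reads were divided are not given in the sources used here. TPM was recomputed from the deposited read counts and transcript lengths and differed by at most 5.5e-06. The columns of both tables all belonged to the 9 samples. Counts and TPM of transcripts with the same gene name were summed to 41710 gene names. The 10 members and all gene lists were chosen with earlier results of these data known.

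Counts of 15504 genes left by filterByExpr were tested with edgeR 4.0.16 (R 4.3.3, TMM scaling, quasi-likelihood test, a mean for each of the 3 groups over all 9 libraries), with Benjamini-Hochberg adjustment over all genes and a threshold of 0.05. The common biological coefficient of variation was 2.86%. Counts of 34991 transcripts were tested the same way. The scripts were tested on simulated counts first. Levels and within-library ratios were put to exact permutation tests (two-sided, 3 hearts against 3). The labels number the replicates of a group and do not say more on how they were sampled, so p-values are set against the spread between these libraries alone. In edgeR that spread was estimated over all 9 libraries together. The median squared difference between library pairs of a group was 1.24 to 1.52 times that of sampling noise. The hearts of a group were thus only a little further apart than sampling noise, and no deposited columns were identical. Dsp sequences came from GENCODE M21 transcripts.

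Named genes were the 10 members, then Ctnnb1, Ctnna3, Tjp1, Des and Gja4, and of each other list the 2 highest and 2 lowest fold changes in Tg-RKIP against FVB among genes past the threshold with at least 100 reads on average in the higher group. Exceptions are marked, and some genes that this rule names are not reported here. The alternatives were DESeq2 1.42.0 and its size factors, library size with and without mitochondrial reads, other count filters, limma 3.58.1 on log2 TPM with pseudocounts of 0.1 and 1, a test against a fold of 1.5, the most abundant transcript of each gene, only the groups compared, the replicate block, leaving out each library, and, chosen after seeing the data, removal of the length trend. Python 3.11.15 was used for the rest.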

Additional observations from a re-analysis of the deposited data

How the results depend on the processing

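On TMM-scaled counts Tg-RKIP against FVB gave 5709 higher and 5751 lower genes (2 and 8 of the 10), Tg-GRK2 against FVB 1895 and 1898, and Tg-RKIP against Tg-GRK2 5874 and 5677. On library size alone the first comparison gave 9709 and 2650 (4 and 5 of the 10), with Gja3 at 0.030, Pkp2 at 0.14 and Cdh2 at 0.078 (log2), and the third gave 9606 and 2851 (4 of the 10 higher), with Pkp2 at 0.15 and Cdh2 at 0.046. At transcript level library size alone gave 5 higher and 6 lower member transcripts in Tg-RKIP against FVB, and 6 lower against Tg-GRK2. One Cdh2 transcript (Cdh2_2) was at 0.28 and 0.067 in these 2 comparisons, and another (Cdh2_3) at 0.036 against Tg-GRK2. On TMM-scaled counts with 1 library left out, 3 to 4 were higher and 10 lower against FVB. Against Tg-GRK2, 10 to 11 were then lower. With all 9 libraries, 34% and 37% of all transcripts passed on TMM-scaled counts. The share over all transcripts on library size alone was not computed, and nothing is read from these counts. With limma on log2(TPM + 0.1) the first comparison gave 8932 and 1964 (4 and 4), with Gja3 at 0.082, Pkp2 at 0.18 and Cdh2 at 0.11. The Tg-GRK2 comparison with FVB then gave 815 lower (0 of the 10), with Gja1 at 0.024 and Pkp2 at 0.024, and the third 2296 lower, with Pkp2 at 0.15 and Cdh2 at 0.049. A pseudocount of 1 gave 8956 and 1960 (4 and 4; Gja3 0.075, Pkp2 0.18, Cdh2 0.11), 807 lower (0; Gja1 0.024, Pkp2 0.024) and 2308 lower (Pkp2 0.15, Cdh2 0.049). Without a filter limma gave 10077 and 2137 (4 and 4), 645 lower (0) and 9534 and 2494, with the fold changes of the 10 genes as at 0.1.

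Tested against a fold of 1.5, Tg-RKIP against FVB gave 1975 higher and 1690 lower genes (0 and 3 of the 10), Tg-GRK2 against FVB 82 and 73 (0 and 0), and Tg-RKIP against Tg-GRK2 2033 and 1834 (1 and 4). DESeq2 gave 1206 lower genes and 1 higher member in Tg-GRK2 against FVB. From the most abundant transcript of each gene, 1 member was higher in either comparison of Tg-RKIP (Jup, with Gjc1 lost), and Tg-GRK2 against FVB gave 837 and 828 genes (1 and 1 of the 10), with Dsc2 at -0.11 and Cdh2 at -0.038. Of the ratios in Tg-GRK2 against FVB, Gja3 to Gja1 and Dsc2 to Dsg2 were higher without overlap on gene sums. Those of Jup, Pkp2, Dsg2 and Cdh2 to Dsp were lower without overlap. From the most abundant transcripts 1 ratio was higher without overlap. The share over other pairs of genes was not computed, and nothing is read from that count. On those transcripts Gjc1 to Gja1 became 0.98 and Gja1 to Cdh2 0.026, in place of -0.16 and -0.034 on the log2 scale. With the length trend removed Dsc2 was -0.0029 in that comparison. The cause of these changes was not tested.

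Leaving out 1 library, member counts were 2 higher and 8 lower throughout in both comparisons of Tg-RKIP. In Tg-GRK2 against FVB 1 to 3 members were higher and 1 to 2 lower, with 1 and 1 without FVB heart 3, 1 higher without Tg-GRK2 heart 1 and 1 lower without Tg-GRK2 heart 3. Jup ranged from -0.013 to 0.027 and its main transcript from -0.0044 to 0.035. Member transcripts in that comparison ranged from 0 to 1 higher and 1 to 2 lower (2 without FVB heart 1). With all 9 libraries the long Dsp transcript (adjusted p = 0.0367) and Cdh2_2 (adjusted p = 0.0387, edgeR) had both passed as higher. No fit that left out 1 library called both, and 3.42% of all transcripts passed with all 9. In Tg-RKIP against Tg-GRK2 member transcripts ranged from 3 to 5 higher (5 without FVB heart 1). With the replicate block, 2 and 8, 2 and 2, and 2 and 8 of the 10 genes were called, from 5666 and 5735, 1834 and 1826, and 5837 and 5654 genes. Hearts of the same number did not deviate together (correlations -0.041 to 0.042 over 9 pairs, against -0.031 to 0.059 over 18 pairs of different numbers), so the numbers were not taken as pairs. Of the tests of single members under the other settings, 360 kept direction and side of the threshold, 31 lost the threshold and 29 turned. In both comparisons with FVB the low connexins Gja5, Gjc1 and Gja3 had the largest standard errors of the 10 genes. The part of depth in this was not tested. Panx3, Gjb5, Pkp3 and Evpl rest on few reads.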
